A study of Rattus norvegicus with 60 samples.

Results

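The ribosomal protein genes of the cytosolic ribosome were followed in the frontal cortex of rats given a pyrethroid insecticide. A gene was included when a probe set carried a single annotated gene symbol made of Rpl or Rps and a number, or was Rplp0 or Rpsa. The kinases named Rps6k were left out. This gave 50 genes on 57 probe sets, out of 14224 genes named by a probe set with 1 symbol and 31042 probe sets in all. Where a gene had several probe sets, the brightest one on average over the 60 arrays stood for it. The symbols place 34 of the genes in the large subunit and 16 in the small subunit. By the endings of the symbols, 43 were taken as proteins of the ribosome itself and 7 as paralogues or pseudogenes (Rpl26l1, Rpl39l1, Rpl3l, Rpl7l1, Rps27l, Rpl37-ps2 and Rps4x-ps1). These endings do not mark Rps4y2, named as a form of Rps4, so it was counted among the 43. A further 30 ribosomal protein symbols, among them Rps18, Rpl32 and Rps19, occurred only on probe sets that list several genes and were not members.

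Adult male Long-Evans rats, aged 62 to 64 postnatal days, received a single oral gavage in corn oil, and the frontal cortex was taken 6 h later. The vehicle group held 12 rats given corn oil alone. Groups of 8 rats received deltamethrin at 0.3, 1 or 3 mg/kg, or permethrin at 1, 10 or 100 mg/kg, in the same oil. RNA of 1 rat was hybridised to each array, with no pooling. All values are the authors' log2 signals after robust multi-array averaging (RMA), which corrects background, equalises the signal distribution of the arrays and summarises the probes of a probe set. The number of arrays, rather than a read depth, limits the precision. Both compounds slow the closing of voltage-gated sodium channels, and deltamethrin carries an α-cyano group that permethrin lacks.

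The cytosolic ribosome translates nuclear mRNAs on a small subunit that decodes the message and a large subunit that forms peptide bonds. Its proteins are needed in fixed proportion, and their mRNAs are among the most abundant of most cells, neurons included. Many of these mRNAs begin with a 5′ terminal oligopyrimidine tract, an unbroken run of C and T bases in the DNA, through which mTORC1 signalling adjusts their translation. That control acts mainly on translation, which an array of total RNA does not read. Ribosomal protein genes have many processed pseudogene copies in mammalian genomes, so a probe set may also bind transcripts of a copy.

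Start regions are shown first for genes that went opposite ways on the arrays, so that their transcription starts can be compared by eye. They are the 4 genes with a matched promoter that were lowest on a set of 14 arrays described further on, the 4 that were highest on it, and the 2 that followed the mean of the other members most closely. RefSeq promoters of the GRCr8 assembly were matched for 41 of the 50 genes. Each line is 25 bases, 12 on each side of the annotated start, on the gene's own strand, and capitals mark the longest run of C or T.
Rps3a: ttgtacttccgCCCTTTTggctctc
Rps24: gcggTCCTCTTTTCCTCCTTTacag
Rpl5: CTCTTTCCCacgtcgcttgcgtcct
Rpl21: CTTTCCgccggggcagccatcttcc
Rplp0: cgcaccgcaCTTCTCTCgccaggcg
Rps15: tgacaccgCTTCCTTTTCCCagcag
Rpsa: TTCCgcgctaccctggaacgggtcc
Rpl18: ggaCCTggtctagcaggaggcgcca
Rpl35a: ggtcttgCCTTCCTCTTTCCgccat
Rpl35: CCCTTCCTCTTTCTCTCgaaccggg
The windows lie at chr2:173827030-173827054 (minus strand) for Rps3a, chr16:96505-96529 (plus) for Rps24, chr14:1995213-1995237 (minus) for Rpl5, chr12:13386141-13386165 (minus) for Rpl21 and chr12:46718378-46718402 (minus) for Rplp0. Those of the others are chr7:10068103-10068127 (minus) for Rps15, chr8:128728867-128728891 (plus) for Rpsa, chr1:105325258-105325282 (plus) for Rpl18, chr11:81235009-81235033 (minus) for Rpl35a and chr3:43165909-43165933 (minus) for Rpl35.

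A run of at least 8 C or T bases on the gene's strand lay within 20 bases of the annotated start in 26 of the 41 promoters (63.4%), against 15.55% of 27457 rat promoters of the same length. The median longest run was 9 bases in the members and 5 in all promoters. The search was for the run alone, on 1 strand, and the RefSeq start need not be the start used in cortex. Runs of this length were found in 14 of 25 genes that were higher on the 14 arrays and in 12 of 16 that were lower.

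The members' signals were high for this array. Their mean log2 signals ran from 4.10 to 13.39 with a median of 11.84, and the median over all probe sets was 7.17. In 7 members the mean was below 6, where an array signal can hold mostly background: Rpl28, Rpl30, Rpl39l1, Rpl3l, Rps27l, Rps4x-ps1 and Rps4y2. No member was dropped for low signal.

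The arrays carried structure that the labels do not name. The first principal component of all probe sets other than the members' held 58.1% of the variance and the second 10.8%. A split of the first component set 14 arrays apart from the other 46. The first and second components together divided the arrays into a set A of 24 (vehicle rats 1 to 6 and rats 1 to 3 of each dose) and a set B of 36, and all 14 arrays lay in set A. The 14 comprised 2 vehicle rats and 1 to 3 rats of each dose group, so both sets hold every group. Set A and set B were drawn after the data had been seen. Marker genes were read beside the cortex label but do not test it, since signals of different probe sets cannot be compared directly. In vehicle rats the mean log2 signal of 7 excitatory neuron markers lay between 9.58 and 10.04, with a median of 9.84. Markers of the choroid plexus, a tissue outside the cortex, ranged from 7.16 to 9.02 with a median of 7.47, so some vehicle samples read higher for them.

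The mean signal of the ribosomal protein genes hardly separated the groups. Over the 50 genes, vehicle rats lay between 10.63 and 10.81 with a median of 10.69, and their mean was 10.70 ± 0.060 (SD, n = 12). Deltamethrin rats averaged 10.70 ± 0.072 at 0.3 mg/kg, 10.71 ± 0.063 at 1 mg/kg and 10.71 ± 0.069 at 3 mg/kg (SD, n = 8 each). All 3 groups overlapped the vehicle range. Permethrin rats averaged 10.64 ± 0.132 at 1 mg/kg, 10.75 ± 0.074 at 10 mg/kg and 10.72 ± 0.069 at 100 mg/kg (SD, n = 8 each). The group given 1 mg/kg had the widest spread, from 10.36 to 10.81, with its 2 lowest rats at 10.36 and 10.58. These were rats 2 and 1 of that group, both among the 14 arrays, and without them the mean was 10.69 ± 0.070 (SD, n = 6). In a bulk tissue a lower value can stand for fewer cells of a type or for less RNA per cell. Neither can be told apart from the other or from the array structure.

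**Figure D1:**
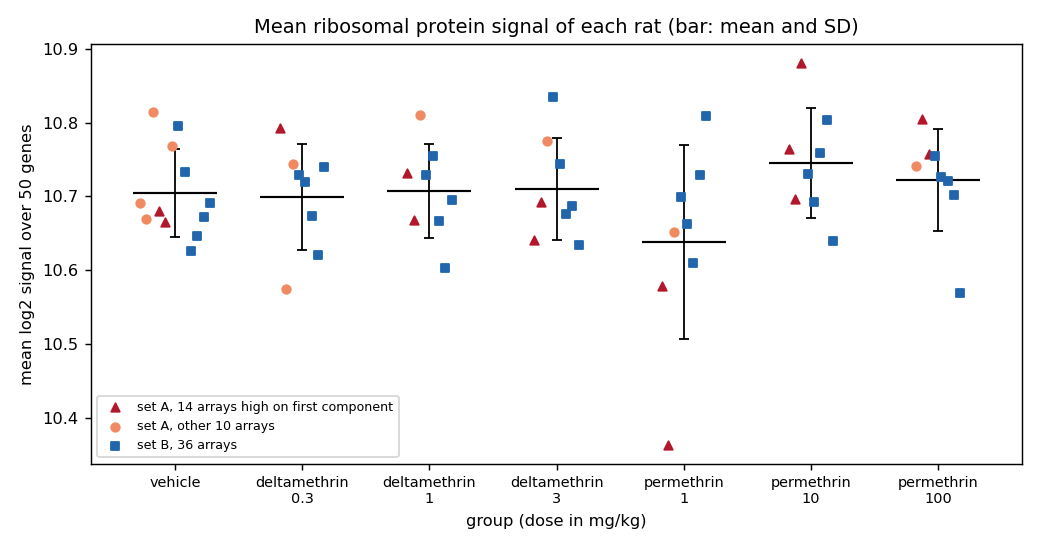
Mean log2 signal over the 50 ribosomal protein genes (vertical axis) in each of the 60 rats by group, with the group mean and SD in black; triangles are the 14 arrays high on the first component, circles the other 10 arrays of set A and squares the 36 arrays of set B. All dose groups overlap the vehicle rats, and the lowest rat, at 10.36, belongs to permethrin 1 mg/kg.

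No ribosomal protein gene passed the test at any dose of either compound. In one limma fit of all groups, with p-values adjusted across the 31042 probe sets by the Benjamini-Hochberg method, 0 of 50 members had an adjusted p below 0.05 in each of the 9 comparisons, and 0% of all probe sets did in any of them. The members' difference from vehicle at deltamethrin 0.3 mg/kg ran from -0.07 (Rplp0) to 0.08 (Rps24) on the log2 scale, with a median of -0.0050. None of the 50 reached even an unadjusted p below 0.05 there, against 0.751% of all probe sets. At 1 mg/kg the median was 0.013 and again 0 of 50 reached that level (background 2.24%). At 3 mg/kg the median was 0.0050, with 0 of 50 members (background 1.36%). The trend over deltamethrin dose, expressed as the fitted change from vehicle to 3 mg/kg, had a median of 0.0073, with 0 of 50 members and 1.36% of probe sets.

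For permethrin the counts were equally small. At 1 mg/kg, 1 of 50 members had an unadjusted p below 0.05 (background 1.18%), and it was lower. This count depended on single arrays: it was up to 9, all lower, without permethrin rat 8 (background then 2.14%), 7 without vehicle rat 4 (2.36%), 6 without permethrin rat 3 (3.07%), 5 without vehicle rat 9 (1.7%) and 4 without vehicle rat 5 (1.58%), and 0 without permethrin rat 1 or rat 2. At 10 mg/kg 1 of 50 did (background 3.48%), and it was higher. At 100 mg/kg the count was 0 of 50 (background 1.24%), and in the trend over dose 0 of 50 (background 0.696%). The medians over the 50 genes were -0.060, 0.052 and 0.015 at the 3 doses in that order, beside medians over all probe sets of -0.0014, -0.00065 and 0.0055. In the permethrin trend 47 of 50 genes had a value above 0, with a median of 0.032 from vehicle to 100 mg/kg, and only 34 of 50 with a median of 0.010 once rats 1 and 2 of the 1 mg/kg group were left out. Within the 46 arrays low on the first component the direction turned, with 16 of 50 above 0 and a median of -0.0099.

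The intervals show how large a change these arrays could have missed. Their widths include the spread between array sets, which the fit did not model. At deltamethrin 3 mg/kg the 95% interval of the difference lay within 0.5 log2 units of 0, a factor of 1.41, for 50 of 50 members, and within 0.25 units, a factor of 1.19, for 36. At permethrin 100 mg/kg 49 members lay within 0.5 and 35 within 0.25. The numbers were 50 and 39 at deltamethrin 0.3 mg/kg, 47 and 35 at deltamethrin 1 mg/kg, 46 and 28 at permethrin 1 mg/kg and 49 and 28 at permethrin 10 mg/kg. In every one of these comparisons 50 of 50 intervals lay within 1 log2 unit.

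**Figure D2:**
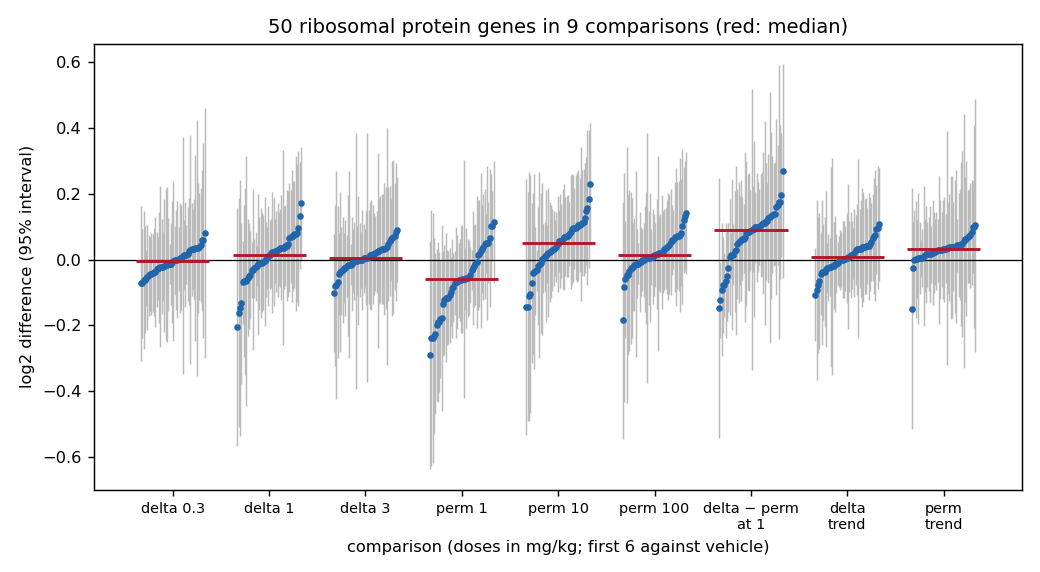
Log2 difference (vertical axis) of each of the 50 ribosomal protein genes in the 9 comparisons, ordered by size within each; grey lines are 95% intervals and red lines the median. The medians lie between -0.060 and 0.089, and the gene with the lowest unadjusted p of all, Rps4y2 at permethrin 10 mg/kg, has a difference of 0.23.

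Among the large-subunit genes, those often used as reference genes differed little from vehicle. Rplp0, a protein of the stalk that recruits elongation factors, had a log2 signal of 11.35 to 12.21 with a median of 11.63 in vehicle rats, and a group mean between 11.59 and 11.77 at the 6 doses. Its differences from vehicle ran from -0.07 to 0.11, and all groups overlapped. Rpl13a, another large-subunit protein, had 11.48 to 12.10 with a median of 11.79 in vehicle rats. Its widest difference was 0.15 (SE 0.081) at permethrin 10 mg/kg, where the rats lay between 11.72 and 12.25 (limma unadjusted p = 0.0755, adjusted p = 0.961). Rpl19 had 12.65 to 13.21 in vehicle rats and differed by -0.12 to 0.05.

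Rpl5, Rpl11 and Rpl23, which besides their place in the large subunit can bind the p53 regulator Mdm2, were compared next. In vehicle rats Rpl5 ranged from 10.998 to 12.06 with a median of 11.79, so its rats differed from each other by more than any 2 group means did. At permethrin 1 mg/kg it ranged from 10.12 to 11.90, and the difference of the means was -0.29 (SE 0.173), with a limma adjusted p of 1.00. Rpl11 went from 11.68 to 12.26 in vehicle rats and from 11.44 to 12.05 at permethrin 1 mg/kg, a difference of -0.13 (SE 0.080). Rpl23 lay between 11.61 and 12.31 in vehicle rats and between 11.01 and 12.18 at permethrin 1 mg/kg, a difference of -0.19. At the other 5 doses the differences of Rpl23 were between -0.02 and 0.06.

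Of the small subunit, Rps6 is the protein phosphorylated by the S6 kinases below mTORC1. Its vehicle signals lay between 12.13 and 12.68 with a median of 12.45, and those at permethrin 1 mg/kg between 11.53 and 12.54 with a median of 12.33. The groups overlapped, and the difference was -0.18 (SE 0.089, unadjusted p = 0.0476, limma adjusted p = 1.00), the sole member below an unadjusted 0.05 at that dose. Within set A the difference was -0.43 and within set B 0.00063. Without the 14 arrays it was -0.06. At deltamethrin 3 mg/kg Rps6 differed by -0.10 (SE 0.089), and no member had a lower p there (unadjusted p = 0.256). Rps3, a protein at the mRNA entry channel that also acts in DNA repair, differed from vehicle by -0.05 to 0.11 over the 6 doses.

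The gene below an unadjusted 0.05 at permethrin 10 mg/kg was Rps4y2, a small-subunit symbol with dim signal. Its vehicle rats lay between 5.15 and 5.99 with a median of 5.57, and those at 10 mg/kg between 5.46 and 5.94 with a median of 5.90. The difference was 0.23 (SE 0.092, unadjusted p = 0.0154, limma adjusted p = 0.961). It was 0.29 within set A and 0.20 within set B. Within the 14 arrays alone, 3 treated against 2 vehicle rats, its sign turned, as given in the last section. At permethrin 100 mg/kg the same gene differed by 0.14 (SE 0.092, unadjusted p = 0.133). Rps16, a small-subunit protein near the decoding site, had the lowest p at 100 mg/kg and in the permethrin trend: it ranged from 12.44 to 13.12 in vehicle rats and from 12.65 to 13.13 at 100 mg/kg, a difference of 0.13 (SE 0.083, unadjusted p = 0.120).

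The remaining genes with the lowest p of a comparison were also within the spread of the vehicle rats. At deltamethrin 0.3 mg/kg these were Rpl7a (-0.06, SE 0.042) and Rpl12 (-0.07, SE 0.083). At deltamethrin 1 mg/kg they were the paralogues Rpl26l1 (0.17, SE 0.086, unadjusted p = 0.0530) and Rpl7l1 (0.13, SE 0.081). Rps27l, a paralogue of Rps27 known as a p53 target, was among them at deltamethrin 3 mg/kg (0.09, SE 0.080) and in the deltamethrin trend (0.09 from vehicle to 3 mg/kg, SE 0.067). Rpl39l1, named as a paralogue of Rpl39, came second in the permethrin trend (0.04, SE 0.039).

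Deltamethrin and permethrin share 1 dose, 1 mg/kg, so 1 pair of groups was compared. The doses were equal by weight but not in effect. The study places 1 mg/kg at the no observable adverse effect level for deltamethrin and below that level for permethrin. The signals after deltamethrin lay above those after permethrin in 42 of 50 genes, with a median difference of 0.089 on the log2 scale, while the median over all probe sets was -0.0041. No member passed the adjusted threshold. An unadjusted p below 0.05 was found for 3 of 50 members, 2 higher after deltamethrin and 1 lower (background 2.73%). Without permethrin rat 8 there were 7 (background 3.99%), and without permethrin rat 7 or deltamethrin rat 2 or 7 there were 6 (3.02% to 4.02%). Rpl26l1 had 6.88 to 7.51 after deltamethrin and 6.71 to 7.28 after permethrin, a difference of 0.20 with a 95% interval of 0.0065 to 0.38. Rpl37a, a small zinc-binding protein of the large subunit, had 12.43 to 12.65 and 12.03 to 12.59, a difference of 0.12 with an interval of 0.0021 to 0.23. Rpl30, whose probe set is dim, had 5.40 to 5.69 and 5.56 to 5.83, a difference of -0.12 with an interval of -0.24 to -0.0078. All 3 pairs of groups overlapped. For 23 of 50 genes the interval of the difference lay within 0.25 log2 units of 0, and for 45 within 0.5. The highest value was that of Rpl26, a large-subunit protein that also binds p53 mRNA, at 0.27 with an interval of -0.056 to 0.59.

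The lower median at permethrin 1 mg/kg and the difference between the compounds were seen in set A but had no counterpart in set B. Against vehicle, the median over the 50 genes at permethrin 1 mg/kg was -0.14 within set A, where 3 treated rats stood against 6 vehicle rats, and 0.0022 within set B, with 5 against 6. Unadjusted p-values below 0.05 were found for 16 of 50 members within set A, 15 of them lower (7.28% of all probe sets), and for 0 within set B (1.1%). Between the compounds it was 0.23 within set A and -0.013 within set B. Leaving out rats 1 and 2 of permethrin 1 mg/kg, 2 of the 14 arrays, brought the 2 medians to -0.025 and 0.011. In these 2 rats Rps6 read 12.11 and 11.53, and in the other 6 it read 12.17 to 12.54. Rpl26 read 11.63 and 11.11 in the 2 rats, and 12.38 to 12.74 in the other 6. Rplp0 went the other way, at 12.02 and 12.14 in the 2 rats and 11.27 to 11.92 in the rest.

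The difference between the sets was itself tested as an interaction at each dose. At permethrin 1 mg/kg 0 of 50 members passed an adjusted p of 0.05. At an unadjusted p below 0.05 there were 16 members, 15 of them lower in set A, against 10.6% of all probe sets. The lowest adjusted p was 0.378, for Rpl37a, whose difference from vehicle was 0.33 log2 units lower in set A than in set B (interaction estimate -0.33). At permethrin 10 mg/kg 3 members had an unadjusted p below 0.05, against 13% of all probe sets, and at the other 4 doses 0 did.

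**Figure D3:**
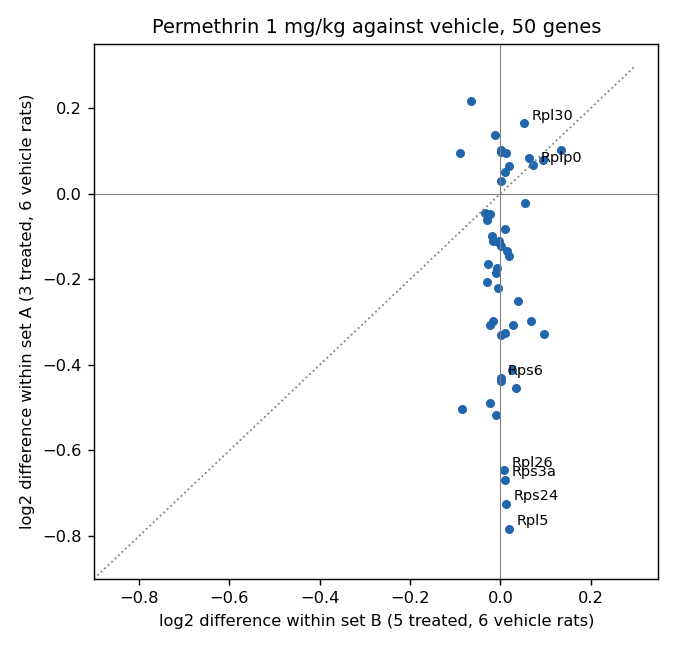
Log2 difference of permethrin 1 mg/kg from vehicle for each of the 50 genes within array set A (vertical axis) and within set B (horizontal axis); the dotted line marks equal values. In set A the genes spread down to -0.78 for Rpl5, while in set B they lie close to 0.

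For 6 genes the SD between rats of a group, pooled over groups, was larger than any member's difference from vehicle at any dose, the widest of which was the -0.29 of Rpl5. This SD had a median of 0.18 over the 50 members and 0.18 over all probe sets. It was largest for Rps3a (0.43), Rps24 (0.42), the pseudogene symbol Rpl37-ps2 (0.40), Rpl5 (0.39), Rpl26 (0.33) and Rpl23a (0.32). Rps3a and Rps24 are proteins of the small subunit, and mutation of the human gene of Rps24 is a cause of Diamond-Blackfan anaemia. It was smallest for the dim pseudogene symbol Rps4x-ps1 (0.059), for Rpl7a (0.088), a large-subunit protein, and for the dim Rpl39l1 (0.093).

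The genes did not all vary together. On the 14 arrays 29 of the 50 genes had a higher mean than on the other 46, and 21 a lower one, with a median difference of 0.039 beside 0.051 over all probe sets. The difference was beyond 0.25 log2 units upward in 8 genes (16%, against 21.9% of all probe sets) and downward in 9 (18%, against 20.0%). The genes that were lower were led by Rps3a, at 11.37 on the 14 arrays and 12.09 on the 46, a difference of -0.73. Its 14 values ran from 10.58 to 12.17 and its 46 from 11.45 to 12.58, so the ranges overlapped. Rps24 differed by -0.71, the pseudogene symbol Rpl37-ps2 by -0.65, Rpl5 by -0.64, Rpl23a by -0.57 and Rpl21 by -0.47. Rpl34 and Rpl23 each differed by -0.35.

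The genes that were higher on the 14 arrays were led by Rpl18, a large-subunit protein, at 11.97 against 11.47, a difference of 0.49. Rplp0 followed with 12.05 against 11.60, a difference of 0.45, then Rpsa, the small-subunit protein also known as the laminin receptor, with 0.42. Rps15, which is needed for export of the small subunit from the nucleus, differed by 0.34, the paralogue Rpl7l1 by 0.33 and Rps3 by 0.30. Of the 16 small-subunit genes 7 were higher, and of the 34 large-subunit genes 22. Both directions thus occurred in both subunits, and 0 of 50 genes had ranges on the 14 and the 46 arrays that did not overlap, against 5.05% of all probe sets.

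The vehicle rats alone, which are part of the comparison above, read as follows. In vehicle rats 4 and 5, which are among the 14, Rps3a read 11.14 to 11.15, while the other 10 vehicle rats lay between 11.76 and 12.58. Rplp0 read 12.04 to 12.21 in the 2 rats and 11.35 to 11.73 in the other 10. For Rps24 the 2 rats read 10.74 to 10.92 and the other 10 read 11.54 to 12.09.

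**Figure D4:**
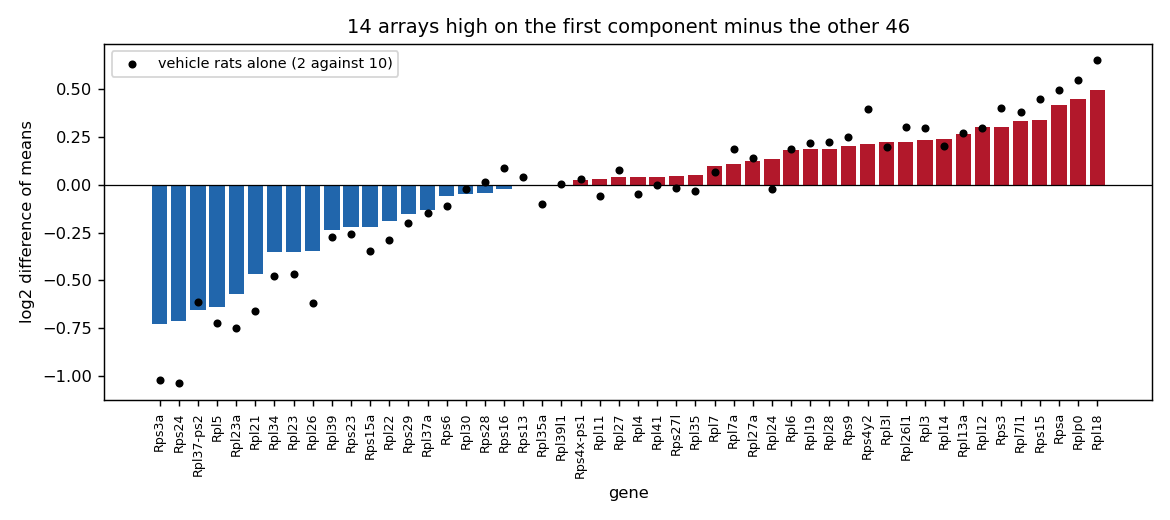
Difference of the mean log2 signal (vertical axis) between the 14 arrays high on the first principal component and the other 46, for each of the 50 genes in order of size; black dots give the same difference in vehicle rats alone, 2 against 10. The genes run from -0.73 for Rps3a to 0.49 for Rpl18.

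**Figure D5:**
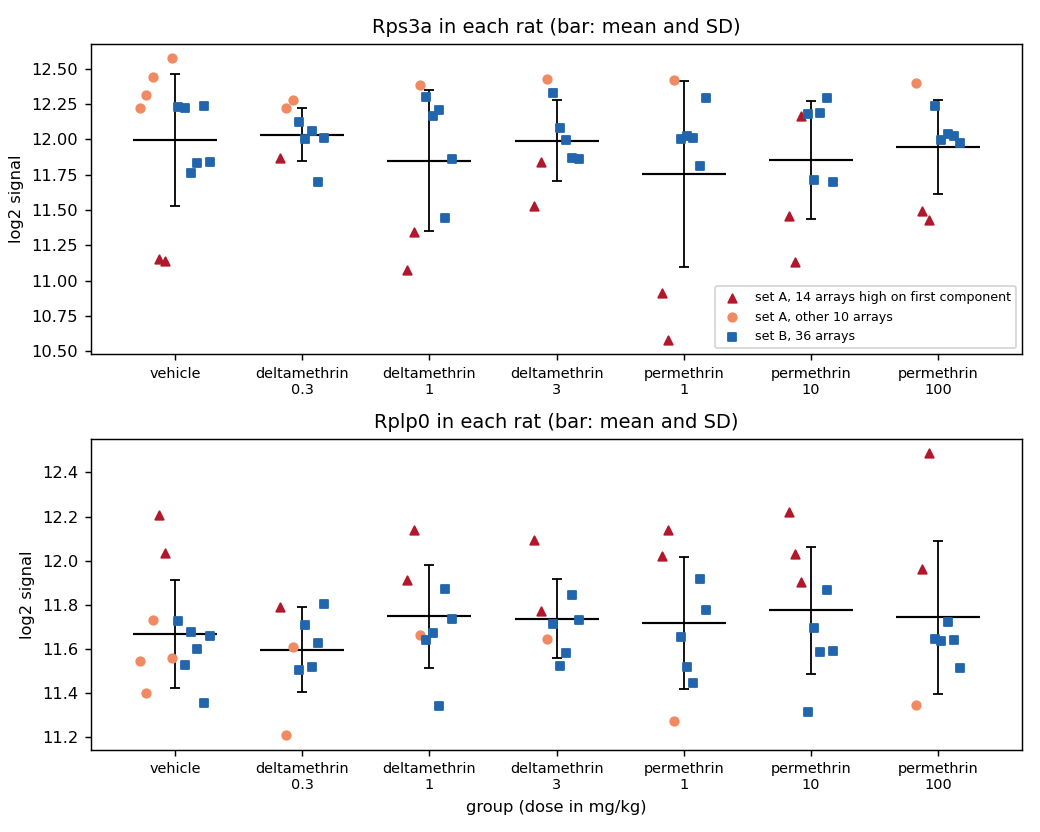
Log2 signal (vertical axis) of Rps3a and Rplp0 in each of the 60 rats by group, with the group mean and SD; triangles are the 14 arrays, circles the rest of set A and squares set B. Within most groups the triangles lie low for Rps3a and high for Rplp0.

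Correlations of the genes' deviations from the mean of their group and array set describe the same division over 60 arrays, which share their hybridisation and normalisation. Rps3a and Rpl5 had r = 0.97, and Rps3a and Rps24 r = 0.96. Rpl18 and Rplp0 had r = 0.95, and Rplp0 and Rps15 r = 0.96. Across the division Rps3a and Rplp0 had r = -0.71. Over the other 46 arrays r was -0.62 for Rps3a and Rplp0 and 0.98 for Rps3a and Rpl5. The deviations used there were still taken from means that include the 14 arrays, which shifts the set A arrays left in. The values over the 46 arrays therefore cannot show whether the division holds without the 14. Over all 1225 pairs of members the median r was 0.16, with 402 pairs above 0.5 and 116 below -0.5.

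With each rat set against the mean of its dose group, the genes closest to the mean of the other members were Rpl35a (r = 0.89), Rpl35 (r = 0.79) and Rpl41 (r = 0.79), all proteins of the large subunit. These hardly differed between the 14 arrays and the rest, by -0.0051, 0.051 and 0.041. The lowest were Rpl30, Rpl39l1 and Rps4y2, which are all dim. Of the paralogue pairs, Rpl3 and Rpl3l had r = 0.26, Rpl26 and Rpl26l1 r = -0.36, Rpl39 and Rpl39l1 r = -0.23, and Rpl7 and Rpl7l1 r = -0.19, from deviations within group and array set. Rpl3 lies by the peptidyl transferase centre, and Rpl3l is its paralogue of striated muscle.

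Where a gene had more than 1 probe set, the probe sets agreed in some genes and not in others. The 3 probe sets of Rpsa had r = 0.92 and 0.93 with the brightest, and differed between the 14 arrays and the rest by 0.42, 0.50 and 0.38. The pair for Rpl7l1 had r = 0.83 and that for Rpl3 r = 0.78. For Rps24 r was 0.54, for Rpl7 0.14 and for Rpl14 -0.14 from the brightest probe set to the second. The 2 probe sets of Rpl7 differed between the 14 arrays and the rest by 0.098 and -0.12, so a value of that gene depends on the probe set.

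Outside the members, the gene whose deviations from its group means followed the members' mean most closely was Eef1b2 (r = 0.85, n = 60 arrays), the exchange factor that reloads the elongation factor eEF1A and itself the product of a terminal oligopyrimidine mRNA. Pcca, Dbi, Emc7 and Tbca came next, with r between 0.77 and 0.78. At 1 mg/kg Eef1b2 was higher after deltamethrin than after permethrin by 0.23 (SE 0.077, unadjusted p = 0.0042, limma adjusted p = 1.00), by 0.52 within set A and by 0.056 within set B.

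The other genes of translation gave the same count of adjusted calls, 0, in all 9 comparisons. Of 73 mitochondrial ribosomal protein genes, 12 were higher and 0 lower at permethrin 10 mg/kg at an unadjusted p below 0.05, where 733 of all 31042 probe sets were higher and 347 lower (3.48% in all), with a median of 0.14 against 0.052 in the 50 cytosolic genes. The lowest unadjusted p values there were those of Mrps14 (0.12, SE 0.049) and Mrpl19 (0.26, SE 0.104), and the limma adjusted p of both was 0.961. Their medians were above 0 in all 9 comparisons, which share samples with each other. On the 14 arrays, which hold all 3 set A rats of permethrin 10 mg/kg, 53 of these 73 genes were higher, with a median difference of 0.33. These genes took part in forming the first component that set the 14 arrays apart.

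Among 34 genes of ribosome assembly and rRNA synthesis, 3 of 306 tests in the 9 comparisons had an unadjusted p below 0.05 (0.98%, where all probe sets had 0.696% to 3.48%). The lowest p values were those of Rrn3, a factor of RNA polymerase I, at 0.18 (SE 0.070) for permethrin 10 mg/kg, and Nolc1, a nucleolar chaperone, at 0.14 (SE 0.057) between the compounds. Among 30 initiation factors the count was 3 of 270 tests (1.11%), also within that range of all probe sets. Lowest in p were Eif4a1, an RNA helicase, at -0.13 (SE 0.055) for permethrin 1 mg/kg and Eif3i at 0.28 (SE 0.136) for permethrin 10 mg/kg. Of 7 elongation factors Eef2k, the kinase of eEF2, was at -0.18 (SE 0.073) for permethrin 1 mg/kg. Of 14 other genes with a terminal oligopyrimidine mRNA, Eif4b was second after Eef1b2, at 0.12 (SE 0.065) between the compounds. Of 19 genes of the mTORC1 pathway Sesn1, a sensor that restrains it, was at 0.18 (SE 0.075) for deltamethrin 3 mg/kg and Rragc at 0.17 (SE 0.083) between the compounds. Within set A and then set B, Rrn3 was at 0.40 and 0.040, Nolc1 at 0.32 and 0.030, and Eif4a1 at -0.26 and -0.028. Eif3i was at 0.58 and 0.11, Eef2k at -0.34 and -0.031, Eif4b at 0.33 and -0.0062, and Rragc at 0.41 and 0.020. Sesn1 was wider within set B, at 0.029 and 0.28.

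Marker genes of cell types also differed between the 14 arrays and the rest. They were among the probe sets that formed the first component, so these differences are not independent of the split. Of 9 microglial markers 8 were higher, with a median difference of 0.55, and the mean of the list lay between 8.35 and 8.92 on the 14, with a median of 8.71, against 8.04 to 8.50 with a median of 8.31 on the other 46. Of 9 endothelial and mural markers 7 were higher, with a median of 0.19. Excitatory neuron markers were higher in 3 of 7 genes, inhibitory in 4 of 8, astrocyte in 4 of 7 and oligodendrocyte in 4 of 7. Single genes of these lists differed by more, from -1.18 to 0.48 for excitatory and -0.86 to 0.62 for inhibitory neurons. Astrocyte genes ran from -1.09 to 0.72 and oligodendrocyte genes from -1.18 to 0.62, where microglial genes ran from -0.59 to 0.71. Choroid plexus and blood markers were each higher in 3 of 5, with medians of 0.037 and 0.0055. Their part in the division of the ribosomal protein genes was not tested.

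Between doses the cell type lists held no adjusted call either, and the 2 genes with the lowest p of each are given with their log2 difference. For astrocytes these were Gfap (0.19, SE 0.092, between the compounds) and S100b (-0.10, SE 0.059, permethrin 1 mg/kg), for microglia C1qc (0.27, SE 0.122, deltamethrin trend) and Aif1 (-0.11, SE 0.064, permethrin 10 mg/kg). For oligodendrocytes they were Ermn (-0.59, SE 0.307) and Mobp (-0.32, SE 0.172), both at permethrin 10 mg/kg. For excitatory neurons they were Camk2a (-0.53, SE 0.25) and Slc17a7 (-0.20, SE 0.136) at permethrin 1 mg/kg, and for inhibitory neurons Npy (0.097, SE 0.048, deltamethrin 1 mg/kg) and Gad1 (0.22, SE 0.129, between the compounds). The vessel genes were Slco1c1 (-0.20, SE 0.077, deltamethrin 3 mg/kg) and Pecam1 (0.19, SE 0.095, deltamethrin trend). Choroid plexus gave Kcne2 (-0.16, SE 0.070, deltamethrin 1 mg/kg) and Ttr (-1.35, SE 0.745, permethrin 10 mg/kg), and blood gave Alas2 (0.38, SE 0.188, permethrin 1 mg/kg) and Ptprc (-0.089, SE 0.044, deltamethrin 1 mg/kg). The limma adjusted p of all 16 was 0.961 or above. Some of these differences were unlike in the array sets. Ermn was at -1.55 within set A and 0.047 within set B, Mobp at -0.67 and -0.064, and Camk2a at -0.78 and -0.21. Kcne2 and Ttr were wider within set B, at 0.014 and -0.28 and at -0.48 and -2.28, as were Npy and Aif1.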

How the data were processed

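Total RNA of the frontal cortex of 60 rats was measured on Affymetrix Rat 230 2.0 arrays, 1 rat per array. The authors computed and deposited log2 signals by RMA, per the labels, which name no version. RMA makes the signal distributions alike, so a change shared by all genes would not be seen. Gene names came from the platform annotation: 20837 probe sets had 1 symbol, 425 several and 9780 none, and 48 of the 50 members' gene IDs were listed by RefSeq. The members and the gene lists were chosen with earlier results of these data known.

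The deposited values were tested unfiltered with limma 3.58.1 in R 4.3.3: one fit of the 7 groups, a fit over dose for each compound (36 arrays), with p-values adjusted by Benjamini-Hochberg across the 31042 probe sets and a threshold of 0.05. The code was first tested on simulated data. Principal components and array sets were made in Python 3.11.15 from probe sets of no member.

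Named in the text are common reference genes and proteins with known roles, the 2 genes with the lowest p in each comparison, the 5 largest and 3 smallest SDs, the 3 highest and 3 lowest correlations with the other members, the 5 most correlated other genes, paralogue pairs, and the 2 lowest p of each other list. Rpl37a, Rpl18, Rpl21, Rpl23a, Rpl34, Rpsa and Rps15, the genes of the printed promoters, and the dim, pseudogene and second-probe-set genes, were named after their values were seen. Alternatives were the replicate number, array group, array set or first component in the fit, subsets of the arrays, a signal filter at 6, median centring, trended robust variances, other choices of probe set, other dose scales, and each array left out. The study's methods describe cohorts of rats treated on separate days, and array sets A and B have the group sizes of these cohorts, but no label assigns a rat to one. P-values measure the spread between these rats and their arrays. In the fit of the 7 groups and in the dose fits, that spread includes the differences between the array sets, which were not modelled. The array sets were not shared evenly over the groups, so the estimated differences can include a part from them too. An unadjusted p below 0.05 was found there for 0.696% to 3.48% of all probe sets, so low counts of members partly reflect this wide spread.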

Additional observations from a re-analysis of the deposited data

Results flagged for a closer look

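In groups of 8 rats, 16 of 180 sets of values of the members' mean and the named members held a rat far from the others, by Dixon's test at the 95% level; chance flags about 1 in 20. Of the mean over the 50 members, permethrin 100 mg/kg rat 8 was lowest at 10.57, with the next rat at 10.70. That rat was also lowest for Rpl35a, at 10.80 with the next at 11.28, and highest for Rps4x-ps1 at 4.22. Permethrin 1 mg/kg rat 2 was lowest for Rpl11 (11.44, next 11.81), Rpl35a (10.66, next 11.07) and Rps6 (11.53, next 12.11), and rat 1 of that dose was highest for Rpl7l1 (9.86). Permethrin 100 mg/kg rat 2 was highest for Rpl41 (12.73) and Rpl7a (12.95), and rat 3 of that dose for Rps27l (6.12). Permethrin 10 mg/kg rat 3 was highest for Rpl35a (11.71), rat 1 for Rps3 (12.80, next 12.44), and rat 4 was lowest for Rps4y2 (5.46). Of the deltamethrin rats, 0.3 mg/kg rat 7 was lowest for Rpl23 (11.91), 1 mg/kg rat 2 was lowest for Rpl39 (8.70) and 3 mg/kg rat 1 was highest for Rps3 (12.67, next 12.32). The flags are not independent of the array structure. Every flagged rat was on one of the 14 arrays high on the first component, except permethrin 100 mg/kg rat 8, permethrin 10 mg/kg rat 4 and deltamethrin 0.3 mg/kg rat 7.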

How the results depend on the processing

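No member passed an adjusted p of 0.05 in any comparison under any alternative run. The median over the members moved by more than the SD between rats (0.079) in these fits. Within the 14 arrays high on the first component it was 0.097 at deltamethrin 0.3 mg/kg, which rests on 1 treated rat against 2 vehicle rats. There it was also -0.20 at permethrin 1 mg/kg and 0.20 between the compounds, each from 2 rats against 2, and 0.14 in the permethrin trend. Within set A, chosen after seeing the data, it was -0.14 at permethrin 1 mg/kg and 0.23 between the compounds, and within set B it was -0.013 between the compounds. The difference of Rps6 at permethrin 1 mg/kg turned to 0.0006 within set B. The differences of Rps4y2 turned to -0.0031 at permethrin 10 mg/kg and -0.012 at 100 mg/kg within the 14 arrays. The cause was not tested. Every other median moved by less than that SD. The SD was larger than the main median of every comparison except that between the compounds (0.089). A median could therefore vanish or change sign without counting as moved. At permethrin 1 mg/kg it went from -0.060 to 0.0022 within set B. Every count of adjusted calls among the members stayed at 0, where no probe set at all passed in the main fits. Counts at an unadjusted p did move. Between the compounds, 16 members were below 0.05 within the 14 arrays (10.9% of all probe sets), against 3 (2.73%) in the fit of all groups. The count of 16 rests on 2 deltamethrin rats against permethrin rats 1 and 2. In the permethrin trend the median was -0.0099 within the 46 arrays. With each array left out in turn the median ran from -0.088 to -0.038 at permethrin 1 mg/kg, from 0.044 to 0.11 between the compounds and from 0.0078 to 0.055 in the permethrin trend. The lowest size of the first and second of these came without permethrin 1 mg/kg rat 2. With the replicate number as a replicate block the median at permethrin 1 mg/kg was -0.086, with 12 members at an unadjusted p below 0.05 against 1 without it, while the share of all probe sets went from 1.18% to 7.93%. Arrays of the same number correlated from -0.82 to 0.90, with a median per number of 0.131 to 0.705; since not every pair was positive and no label says what a number marks, the numbers were not taken to pair rats. The dim signal of 7 members limits what can be read from them.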
